A study of Mus musculus with 9 samples.

Results

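The proteasome subunit genes of mouse were taken from the deposited table as every gene whose symbol is Psma, Psmb, Psmc or Psmd followed by a number, leaving out the immunoproteasome genes Psmb8, Psmb9 and Psmb10. This gave 36 genes of 23798, carried by 40 of the 33299 RefSeq transcripts in the table. Of the 36 genes, 16 belong to the core particle, 17 to the regulatory particle, and 3 (Psmd5, Psmd9 and Psmd10) carry a Psmd symbol but are known as chaperones that assemble the regulatory particle and are absent from the finished complex. The 9 libraries were made from mouse brain samples labelled as oligodendrocytes, the cells that make myelin, in a series on alpha-synuclein released by neurons. There were 3 libraries from mice of the genotype labelled TG given NM-101, 3 from TG mice given placebo and 3 from wild-type (WT) mice given placebo. The labels do not say which transgene or promoter TG stands for, nor what NM-101 is, and they give no age or sex. Whether the 3 libraries of a group stem from different animals is not said, and the p-values therefore cover only the spread between these libraries, which may be technical.

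The proteasome is the protease that degrades proteins tagged with ubiquitin. Its core particle is a barrel of stacked rings, with alpha subunits on the outside that gate the entry and beta subunits on the inside, some of which carry the proteolytic sites. The regulatory particle caps the barrel; its ATPase ring unfolds the substrate and its non-ATPase subunits bind ubiquitin, remove it and hold the cap together. In brain the proteasome is 1 of the routes, beside autophagy, by which alpha-synuclein is known to be degraded.

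The WT columns hold whole-number counts, with totals from 10612290 to 14041951, and the TG columns hold log2 values that are read here as log2(FPKM + 1), where FPKM is fragments scaled by transcript length and library size. That reading comes from the values: for 14811 transcripts, the linear TG value had a slope of 0.97 on WT CPM (counts scaled to library size) and of -0.88 on length, both in log2 units. The depth of the TG libraries is unknown. Neuronal RNA was abundant in all libraries despite the label, with a median level over 10 neuron markers of 7.34, 7.43 and 7.38 in the TG NM-101 libraries, 7.55, 7.33 and 7.31 in the TG placebo libraries and 7.33, 7.33 and 7.43 in the WT placebo libraries. In tissue RNA of this kind, fewer cells of a type and less RNA per cell cannot be told apart.

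In the WT placebo libraries 34 of the 36 genes were well counted. Their counts in single libraries ran from 233 for Psmd10 to 3128 for Psmd2, and their mean level from 22.5 ± 0.521 CPM for Psmd10 to 230 ± 6.02 CPM for Psmd2 (SD, n = 3). Psmd2 encodes a large scaffold subunit at the base of the regulatory particle. The 2 remaining genes were nearly uncounted. Psma8, an alpha subunit known from testis, had 3, 6 and 5 counts, and Psmb11, a beta subunit known from the cortex of the thymus, had 3, 3 and 5 counts. Because of these few counts their coefficients of variation between WT libraries were the largest of all members, at 21.9% for Psma8 and 35.0% for Psmb11. The next largest was that of the catalytic subunit gene Psmb5, with 1318, 1757 and 1718 counts and 9.32%. All other members varied by less than Psmb5, down to 0.909% for Psma2, an alpha subunit with 1395, 1863 and 1534 counts.

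**Figure D1:**
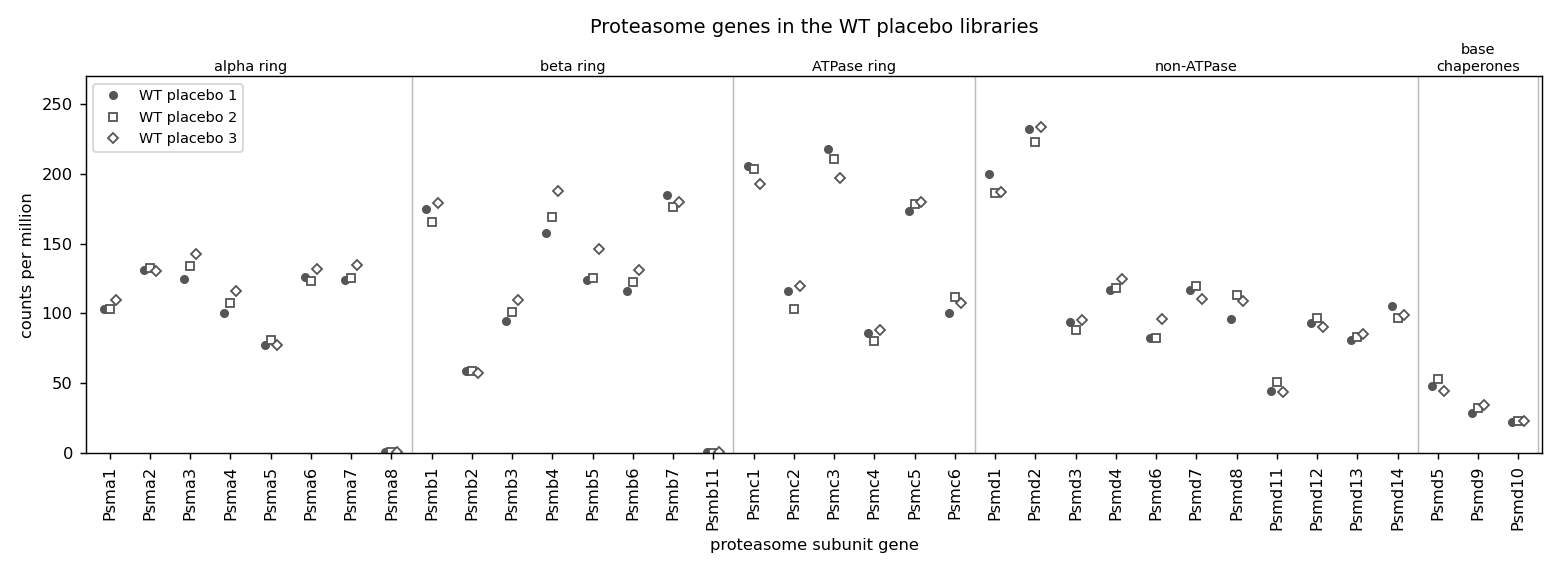
Counts scaled to library size (CPM) of 36 proteasome genes in the 3 WT placebo libraries, summed over the transcripts of each gene; the horizontal axis lists the genes by particle and each marker shape is 1 library. The libraries lie close together for each gene, and Psma8 and Psmb11 lie at the bottom of the axis.

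Across the 6 TG libraries the same 34 genes stood above the level used for testing, a mean of 1 on the log2(FPKM + 1) scale, and Psma8 and Psmb11 stood below it. Psma8 was at 0.382, 0.285 and 0.098 in the TG NM-101 libraries, against 0.317, 0.317 and 0.075 in the TG placebo libraries. Psmb11 was at 0.052, 0.028 and 0.036 in the TG NM-101 libraries, against 0.155, 0.124 and 0.108 in the TG placebo libraries. The values of Psmb11 did not overlap between the groups, but all of them are close to 0 and the gene was not tested.

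Levels per length are given by part of the complex. Psma8 and Psmb11, the lowest members of their rings, are included and pull the alpha and beta medians down, in levels and in CPM. With Psma8 left out the middle alpha gene was Psma4, at 6.45 in TG NM-101 and 6.46 in TG placebo. In the TG NM-101 libraries the beta ring had the highest median level, 7.37, ahead of the ATPase ring at 6.47, the alpha ring at 6.40, the non-ATPase subunits at 5.94 and the chaperones at 4.06. In the TG placebo libraries the medians were 7.19, 6.47, 6.37, 5.77 and 3.77 in the same order of parts. Without division by length the order of the rings was another: in the WT placebo libraries the median was 145 CPM for the ATPase ring, 128 CPM for the beta ring, 118 CPM for the alpha ring, 100.4 CPM for the non-ATPase subunits and 31.8 CPM for the chaperones. Reads here come from the 3' end, so the level per length depends on dividing by a length that the reads do not span. The order of the ATPase and alpha rings is not a firm one, since their medians lie far closer together than the members within each ring, from 5.83 for Psmc6 to 7.25 for Psmc5 in the ATPase ring of TG NM-101. Within the regulatory particle the SD over 17 members was 0.59 in TG NM-101 and 0.58 in TG placebo, larger than the spread between libraries of any tested member.

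**Figure D2:**
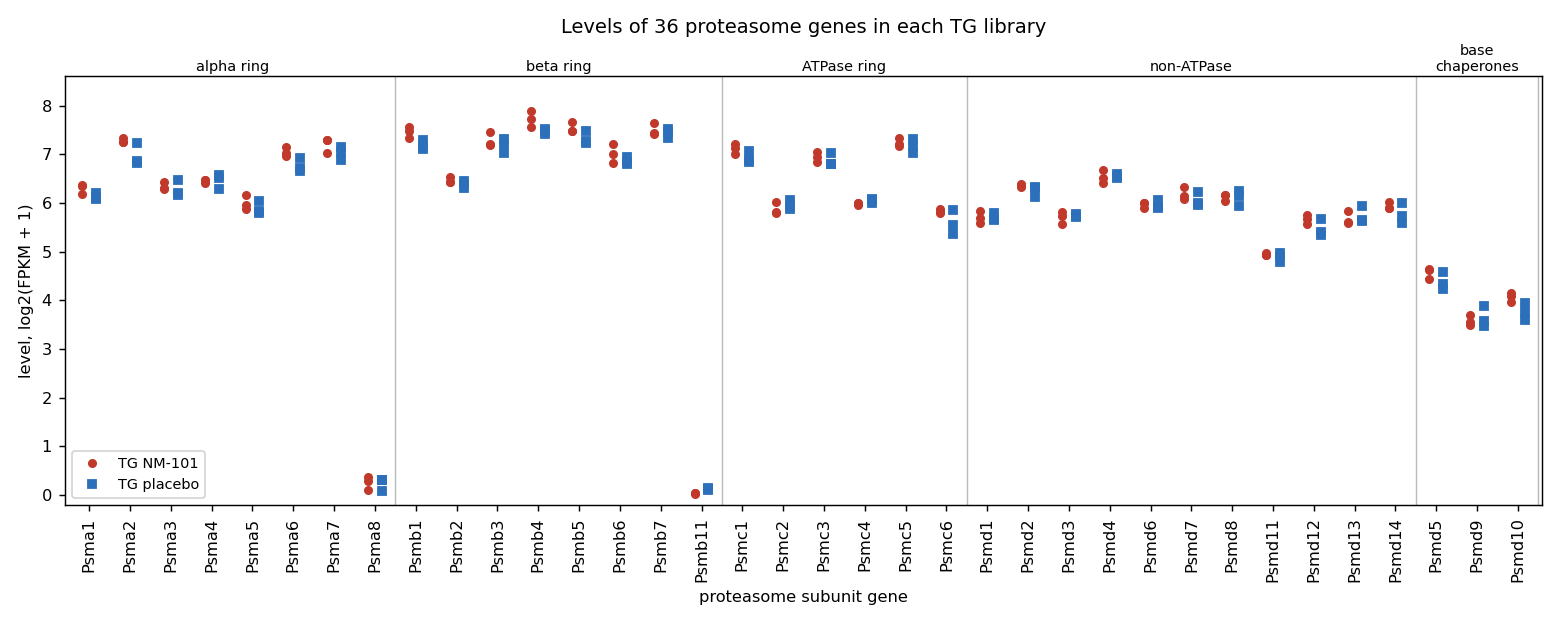
Level of each of the 36 proteasome genes on the log2(FPKM + 1) scale in the 3 TG NM-101 libraries (red circles) and the 3 TG placebo libraries (blue squares), ordered by part of the complex. Beta ring genes other than Psmb11 lie between 6.31 and 7.89 and the assembly chaperones between 3.47 and 4.64.

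Setting TG NM-101 against TG placebo asks whether these genes differ with NM-101 in the TG genotype. Of the 34 members tested, 0 passed at a limma adjusted p of 0.05, against 17 of 12699 genes tested (0.134%, made up of 0.102% higher and 0.0315% lower). Before adjustment, 5 members were higher at p under 0.05, 14.7% of those tested against 10.7% of all genes, and 0 lower against 4.17% of all genes. Values did not overlap between the groups for 6 members, all higher under NM-101, which is 17.6% against 13.6% of all genes. For the lower direction 0 members stood apart, against 5.98% of all genes. In these counts the members were near the background of the comparison. Their median difference, TG NM-101 minus TG placebo, was 0.10 on the log2(FPKM + 1) scale, against 0.03 over all genes tested. By sign, 26 members were above 0 and 8 below, so 76.5% were above 0 against 55.5% of all genes.

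The differences are given here for each particle. Core members had a median difference of 0.16, and 13 of 14 (92.9%) were above 0, against 55.5% of all genes. Of the 6 members that did not overlap between groups, 5 were core members, which is 35.7% of the 14 tested against 13.6% of all genes. In GRCm38 these are Psma2 (chr13:14613242-14625673), Psma6 (chr12:55384222-55418459), Psmb1 (chr17:15475721-15498276), Psmb4 (chr3:94884324-94886958) and Psmb5 (chr14:54614120-54617995). Regulatory members had a median difference of 0.05, with 11 of 17 (64.7%) above 0 and 0 of 17 that did not overlap, against the same shares of all genes. The sixth was the chaperone gene Psmd10 (chrX:140948425-140956711). These counts describe the lists, and the difference between the particles was not tested across members.

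**Figure D3:**
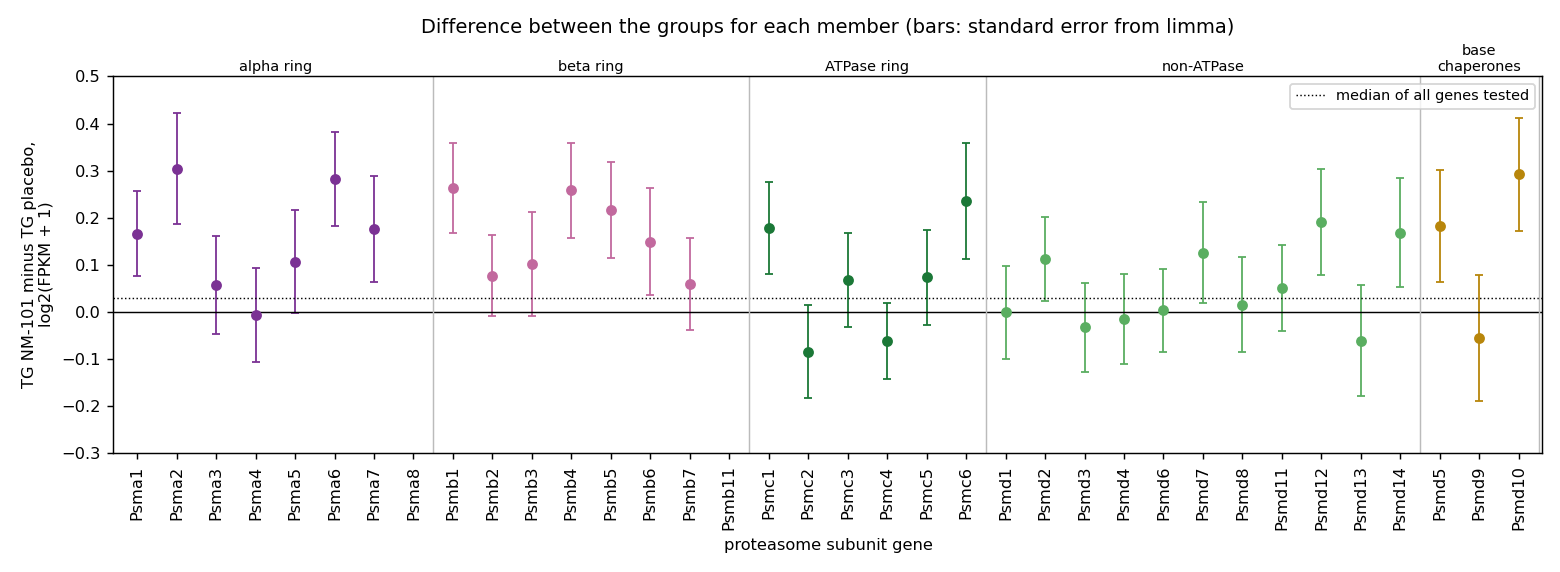
Difference TG NM-101 minus TG placebo on the log2(FPKM + 1) scale for the 34 members tested, by part of the complex; bars are standard errors from limma and the dotted line is the median of all genes tested, 0.03. Core members lie from -0.01 to 0.30 and regulatory members from -0.09 to 0.24.

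Among the alpha subunits, which form the outer rings and the gate, Psma2 had the largest difference. Psma2 was at 7.26, 7.25 and 7.33 in the TG NM-101 libraries, against 7.23, 6.83 and 6.87 in the TG placebo libraries. The lowest NM-101 library lay only just above placebo replicate 1, while placebo replicates 2 and 3 lay well below. The difference was 0.30 ± 0.12 (SE), with a limma adjusted p of 0.282. Psma6 was at 6.96, 7.15 and 7.03 in the TG NM-101 libraries, against 6.92, 6.66 and 6.72 in the TG placebo libraries. Again the groups did not overlap and placebo replicate 1 was the nearest to NM-101, with a difference of 0.28 ± 0.10 (SE) and a limma adjusted p of 0.258. The SD of Psma2 was 0.05 in TG NM-101 and 0.22 in TG placebo (n = 3 each). The remaining alpha genes tested, Psma1, Psma3, Psma4, Psma5 and Psma7, overlapped between groups with differences from -0.01 for Psma4 to 0.18 for Psma7.

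Among the beta subunits, 3 carry proteolytic sites. Psmb5, which carries the chymotrypsin-like site, was at 7.48, 7.67 and 7.48 in the TG NM-101 libraries, against 7.47, 7.24 and 7.27 in the TG placebo libraries. The gap between the groups was only that between NM-101 replicate 3 and placebo replicate 1, and the difference was 0.22 ± 0.10 (SE; limma adjusted p = 0.360). Psmb6, which carries the caspase-like site, was at 6.81, 7.22 and 7.01 in the TG NM-101 libraries, against 6.95, 6.81 and 6.84 in the TG placebo libraries. Psmb7, which carries the trypsin-like site, was at 7.45, 7.64 and 7.41 in the TG NM-101 libraries, against 7.46, 7.34 and 7.52 in the TG placebo libraries. Both genes overlapped between the groups, at differences of 0.15 ± 0.11 and 0.06 ± 0.10 (SE), and in both the highest library was NM-101 replicate 2. Their standard errors leave room for a change in either direction for both Psmb6 and Psmb7.

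The beta genes that stood apart beside Psmb5 encode subunits without a proteolytic site. Psmb4, the member with the highest level, was at 7.57, 7.89 and 7.73 in the TG NM-101 libraries, against 7.52, 7.48 and 7.42 in the TG placebo libraries. Psmb1 was at 7.33, 7.56 and 7.48 in the TG NM-101 libraries, against 7.29, 7.12 and 7.18 in the TG placebo libraries. Each NM-101 library was above each placebo library for both genes. Their differences were 0.26 ± 0.10 (SE) each, with limma adjusted p-values of 0.286 for Psmb4 and 0.264 for Psmb1. Psmb2 and Psmb3 overlapped, at 0.08 and 0.10.

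In the ATPase ring, which grips and unfolds substrates, no gene separated the groups. Psmc5 had the highest level of the ring, at 7.22, 7.34 and 7.18 in the TG NM-101 libraries, against 7.32, 7.04 and 7.16 in the TG placebo libraries. Psmc6 had the lowest, at 5.79, 5.82 and 5.87 in the TG NM-101 libraries, against 5.85, 5.37 and 5.56 in the TG placebo libraries. For Psmc6 placebo replicate 1 lay among the NM-101 libraries and the other placebo libraries below them, and the difference was 0.24 ± 0.12 (SE; limma adjusted p = 0.400). Psmc2 had the most negative difference of any member tested, -0.09 ± 0.10 (SE), from 5.79, 6.02 and 5.81 in the TG NM-101 libraries, against 6.05, 5.88 and 5.95 in the TG placebo libraries. Psmc4 followed in size at -0.06 ± 0.08 (SE), from 5.96, 6.01 and 5.99 in the TG NM-101 libraries, against 6.08, 6.00 and 6.06 in the TG placebo libraries. Neither of these differences exceeded its standard error.

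The non-ATPase subunits of the regulatory particle overlapped between the groups without exception among 11 genes, with a median difference of 0.01. Psmd4, a ubiquitin receptor, had the highest level, at 6.41, 6.68 and 6.51 in the TG NM-101 libraries, against 6.53, 6.51 and 6.60 in the TG placebo libraries. Psmd11, a subunit of the lid of the cap, had the lowest, at 4.94, 4.97 and 4.94 in the TG NM-101 libraries, against 4.98, 4.79 and 4.92 in the TG placebo libraries. Psmd13, another lid subunit, was at 5.60, 5.84 and 5.60 in the TG NM-101 libraries, against 5.94, 5.65 and 5.64 in the TG placebo libraries, a difference of -0.06 ± 0.12 (SE). Psmd14, the deubiquitinase that cuts ubiquitin from the substrate, differed by 0.17 ± 0.12 (SE; limma adjusted p = 0.509) and Psmd1, a scaffold of the base, by -0.0017 ± 0.10 (SE). The differences of the subunits Psmd2, Psmd3, Psmd6, Psmd7, Psmd8 and Psmd12 ran from -0.03 for Psmd3 to 0.19 for Psmd12.

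The chaperone genes did not move as a unit. Psmd10 was at 4.14, 4.08 and 3.96 in the TG NM-101 libraries, against 3.60, 3.76 and 3.95 in the TG placebo libraries, a difference of 0.29 ± 0.12 (SE; limma adjusted p = 0.308). For Psmd10 it was placebo replicate 3, not replicate 1, that lay next to the NM-101 libraries. Psmd5 was at 4.64, 4.45 and 4.62 in the TG NM-101 libraries, against 4.59, 4.33 and 4.23 in the TG placebo libraries, which overlap. Psmd9 was at 3.50, 3.70 and 3.55 in the TG NM-101 libraries, against 3.89, 3.57 and 3.47 in the TG placebo libraries, which overlap as well. Their differences were 0.18 ± 0.12 and -0.06 ± 0.13 (SE).

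Set out by library, TG placebo replicate 1 did not lie with its group. The median over core members of the library's value minus the TG placebo mean was 0.05, 0.27 and 0.09 in the TG NM-101 libraries, against 0.09, -0.09 and -0.03 in the TG placebo libraries. For regulatory members the same quantity was 0.04, 0.13 and 0.01 in the TG NM-101 libraries, against 0.13, -0.06 and -0.04 in the TG placebo libraries. Placebo replicate 1 was thus level with the NM-101 libraries on both lists. TG NM-101 replicate 2 was the highest of its group on both. The median difference of core members was 0.09 without it, against 0.16 with all libraries and 0.23 without TG NM-101 replicate 1. The gap between the particles within a library did not overlap between the groups, as was so for 13.6% of single genes in the higher direction. This gap was not tested, and the particles also differ in transcript length, as given below. The median core level minus the median regulatory level was 0.99, 1.16 and 1.03 in the TG NM-101 libraries, against 0.87, 0.83 and 0.83 in the TG placebo libraries. The core medians by library are over all 16 core genes, the untested Psma8 and Psmb11 among them. With means over the tested members in place of medians, a choice made after the data were seen, the gap was 0.84, 0.89 and 0.87 in the TG NM-101 libraries, against 0.76, 0.73 and 0.80 in the TG placebo libraries. All NM-101 libraries had a wider gap than all placebo libraries under both measures, by a margin that shrank with means. The means also leave out Psma8 and Psmb11, so the measures differ in their genes as well as in the summary used.

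Other RNA classes differed between the same libraries. Over all genes tested, the difference between the groups was above 0 in 55.5%, and 0.134% passed the test. Nuclear-retained RNAs, as a median over 7 genes against the TG placebo mean, were at -0.61, -0.84 and -1.11 in the TG NM-101 libraries, against -1.18, 0.31 and 0.87 in the TG placebo libraries. Of the 6 tested, 1 was above 0 and 5 below. The level summed over the 8 in the table ran, on the log2 scale, from 8.27 to 8.64 in TG NM-101 and from 7.63 to 10.43 in TG placebo, and none was at 0. Placebo replicates 2 and 3, the libraries lowest in core subunits, were the highest in nuclear RNA. Myelin markers were at 0.58, -0.24 and 0.18 in the TG NM-101 libraries, against 0.98, -0.40 and -0.52 in the TG placebo libraries; 8 of 10 were above 0, the summed level ran from 11.00 to 11.86 in TG NM-101 and from 10.61 to 12.26 in TG placebo, and none was at 0. Astrocyte markers were higher in 9 of 9 genes, with a summed level from 10.82 to 10.89 in TG NM-101 and from 10.31 to 10.51 in TG placebo, with 1 of 9 passing the test and none at 0. Microglia markers were above 0 in 8 of 9 genes (8.52 to 8.55 in TG NM-101, 8.14 to 8.27 in TG placebo), and endothelial and mural markers in 0 of 9 (6.27 to 6.39 in TG NM-101, 6.40 to 6.83 in TG placebo). Choroid plexus markers ran from 5.41 to 10.02 in TG NM-101 and from 3.22 to 12.16 in TG placebo, highest in placebo replicate 1, with Folr1 at 0. The part of these RNAs in the proteasome values was not tested. Without TG placebo replicate 1, a fit that sets NM-101 against the libraries highest in nuclear RNA, 3 of 34 members passed, Psma2 (0.43), Psma6 (0.36) and Psmc6 (0.36), at limma adjusted p-values of 0.00918, 0.0248 and 0.0252. That is 8.82% of the members, below the 17.8% of all genes called in that fit.

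**Figure D4:**
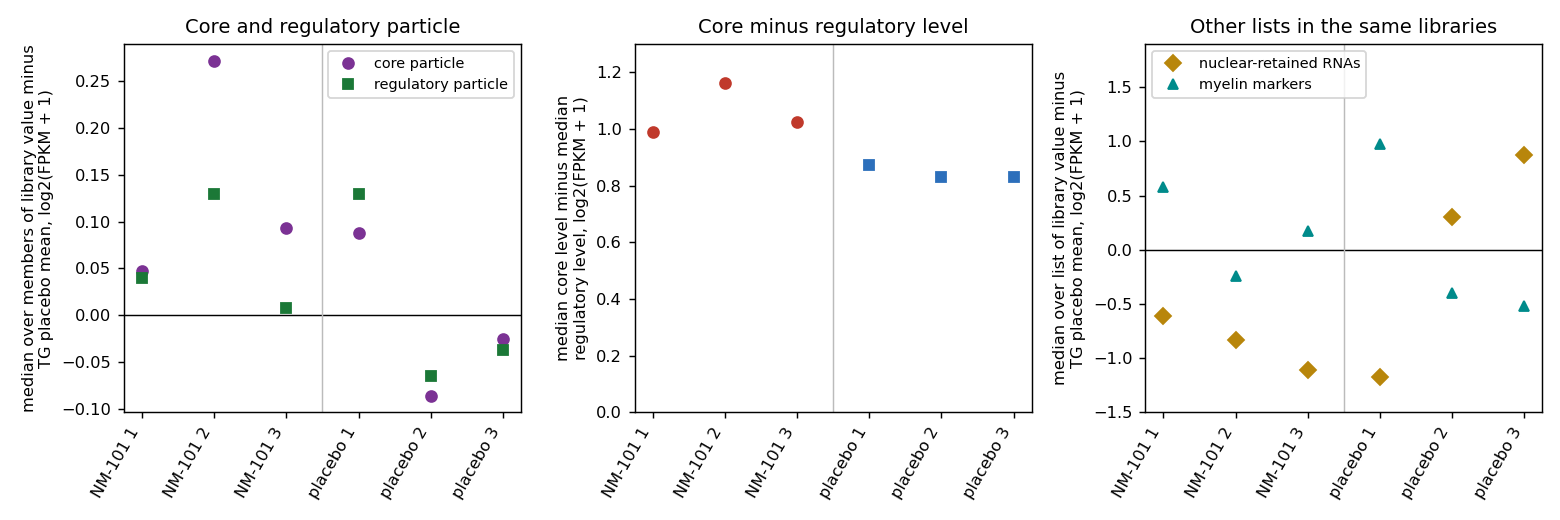
For each TG NM-101 library (left 3 positions) and TG placebo library (right 3): the median over core or regulatory members of the value minus the TG placebo mean; the median core level minus the median regulatory level; and the same median difference for nuclear-retained RNAs and myelin markers, all in log2(FPKM + 1) units. The core minus regulatory gap lies from 0.99 to 1.16 in TG NM-101 and from 0.83 to 0.87 in TG placebo. Its core median takes in Psma8 and Psmb11. Placebo replicate 1 lies apart from replicates 2 and 3 in the outer panels.

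Transcript length differed between the particles, and the difference between the groups varied with length over all genes. Core members had a median transcript length of 1174 bases and regulatory members one of 1636. Among all 991 tested genes with a mean level from 3 to 8 and a transcript shorter than 1300 bases, the median difference was 0.15 and 75.3% were above 0. The 11 members in that class, all of the core, had the same median of 0.15, with 10 above 0. Between 1300 and 2000 bases the median over 1258 genes was 0.04 with 59.5% above 0, and the 14 members there, 12 of them regulatory, had a median of 0.07 with 10 above 0. Between 2000 and 3000 bases the medians were 0.06 for 7 members and 0.02 for 1680 genes. From 3000 bases up the median over 3492 genes was again higher, at 0.06 with 62.1% above 0, and the 2 members there had a median of 0.09, so the difference did not fall steadily with length. In each class of length the median of the members thus lay at or above that of all genes. Those genes were matched on level only by the range from 3 to 8. The particles differed in length as they did in their difference between groups, and the part of length in the result was not tested. Of the 6 largest differences among members, 4 belonged to genes above 1300 bases: Psma2 (2911 bases), Psmd10 (1430), Psmb1 (1758) and Psmc6 (2234). The GENCODE lengths of Psma2, Psmb1 and Psma3 may not be those of the transcripts the authors used, as the WT values below show. The length classes in which these core genes were placed are therefore uncertain.

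**Figure D5:**
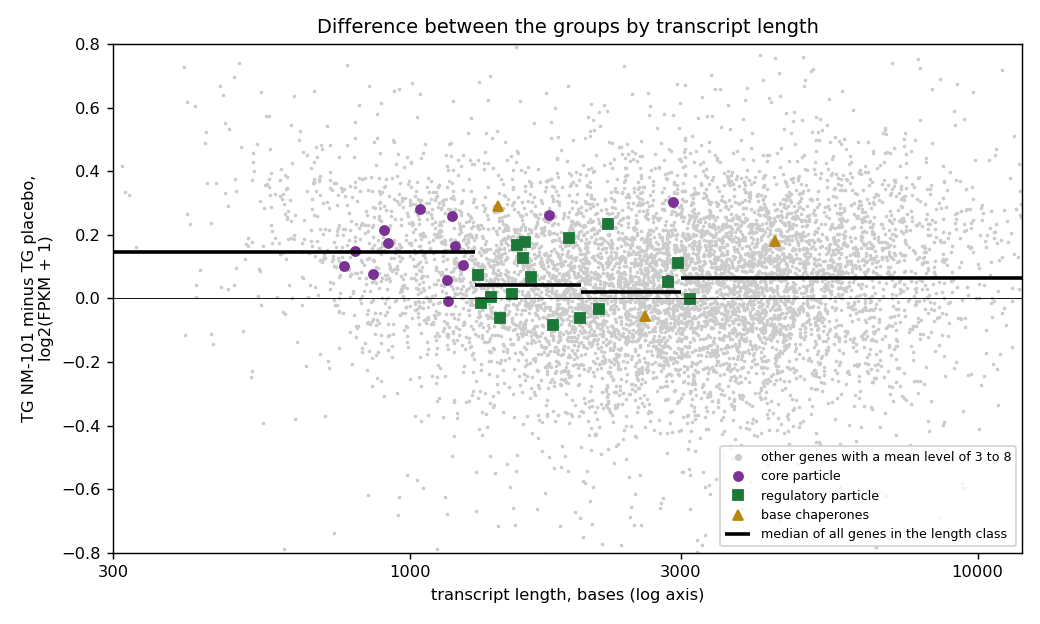
Difference TG NM-101 minus TG placebo on the log2(FPKM + 1) scale against transcript length in bases (log axis) for genes with a mean level from 3 to 8: core members, regulatory members, assembly chaperones and all other genes in grey, with black lines at the median of all genes in each length class; a few genes lie beyond the axes. The line for transcripts shorter than 1300 bases lies at 0.15 and that for 1300 to 2000 bases at 0.04.

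In 4 members the table listed a pair of transcripts, and their values are given here for Psmd4, Psmd2 and Psmd10. The shorter Psmd4 transcript was at 4.65, 4.65 and 4.59 in the TG NM-101 libraries, against 4.68, 4.85 and 4.95 in the TG placebo libraries. The longer was at 5.93, 6.29 and 6.09 in the TG NM-101 libraries, against 6.08, 5.98 and 6.07 in the TG placebo libraries. Every NM-101 library was below every placebo library for the shorter transcript, while the groups overlapped for the longer. In the GENCODE sequences these transcripts share 1267 bases in 2 blocks, and the shorter has 9 bases between the blocks that the longer lacks. A non-coding transcript of Psmd2 was listed at 1.07, 0.42 and 1.08 in the TG NM-101 libraries and at 0 in each TG placebo library, with 0, 26 and 32 counts in the WT placebo libraries. It shares its last 2762 bases with the main Psmd2 transcript, which stood at 6.38, 6.37 and 6.31 in the TG NM-101 libraries, against 6.33, 6.30 and 6.13 in the TG placebo libraries. The shorter Psmd10 transcript was at 3.05, 2.56 and 2.83 in the TG NM-101 libraries, against 2.44, 2.31 and 2.49 in the TG placebo libraries, and the groups did not overlap. The longer Psmd10 transcript was at 3.37, 3.59 and 3.24 in the TG NM-101 libraries, against 2.94, 3.26 and 3.44 in the TG placebo libraries, and the groups overlapped. The Psmd10 pair shares its last 881 bases, and no difference within a pair was tested. Because the kit reads transcripts from the 3' end, reads of such pairs are hard to assign, and values per transcript are uncertain where values per gene are less so. Both transcripts of Psma7 are paired with a single GENCODE sequence and could not be compared.

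The 2 comparisons with WT placebo set values across columns that were normalized separately, so no test was made, and they share the WT libraries. WT counts were divided by library total and by GENCODE length and written as log2(RPKM + 1), where RPKM is reads scaled by length and library total. Over 36 members the median of TG NM-101 minus WT placebo was 0.07, and by library 0.04, 0.15 and 0.09. The median of TG placebo minus WT placebo was -0.03, and by library 0.07, -0.04 and -0.05, while the WT libraries themselves lay at -0.03, -0.0032 and 0.04 against their mean. Each TG NM-101 library lay above each WT library, but TG NM-101 replicate 1 (0.0382) and WT placebo replicate 3 (0.0371) were nearly tied. That is no clear separation for columns normalized separately. The TG placebo libraries overlapped with the WT libraries. The same median over all 12463 tested genes with a length was 0.07, 0.06 and 0.06 in the TG NM-101 libraries and 0.02, 0.05 and 0.06 in the TG placebo libraries, so the offset of the members in TG NM-101 was about that of all genes. The value of TG NM-101 minus WT placebo was -0.0069 with median-ratio scaling and 0.0066 with another choice of transcript length, so its sign depends on the setting.

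The gap between core and regulatory particle was narrower in the rebuilt WT values. The median core level minus the median regulatory level averaged 1.06 in TG NM-101 and 0.85 in TG placebo, against 0.52, 0.63 and 0.58 in the WT placebo libraries. These core medians again take in Psma8 and Psmb11. Over the 14 core genes tested, the median of group means was 7.12 in TG NM-101, 6.92 in TG placebo and 6.79 in WT placebo. For the regulatory members it was 5.96, 5.96 and 6.01 in the same order. The gap between the particles depends on each gene's assumed length, and single genes show how much. Psma2 was rebuilt at 5.53, 5.54 and 5.52 in the WT placebo libraries from a length of 2911 bases, well below its level in any TG library, although its WT counts were among the highest of the alpha ring. Psmd11, Psma3 and Psmb1, among others, were likewise rebuilt lower than in every TG library. Whether TG and WT differ in this gap cannot be told apart from a difference in the lengths used.

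Lists of 37 further genes hold those that serve the proteasome. They also hold Adrm1 and Sem1, subunits of the regulatory particle whose symbols fall outside the rule used for the members. Of the 37 genes, 0 passed at a limma adjusted p of 0.05, against 0.134% of all genes tested. By sign, 22 were above 0 and 15 below, so 59.5% were above 0 against 55.5% of all genes. Their median difference was 0.03, the same as over all genes tested. Values did not overlap between the groups for 8 of the 37 in the higher direction, which is 21.6% against 13.6% of all genes. In the lower direction 1 of the 37 stood apart, against 5.98% of all genes. Of the 3 immunoproteasome genes, whose products replace the catalytic beta subunits in immune settings, Psmb8 was at a mean of 2.02 in TG NM-101 and 1.70 in TG placebo and Psmb9 at 1.33 in TG NM-101 and 1.48 in TG placebo. Psmb10 was higher, at 4.83 in TG NM-101 and 4.75 in TG placebo. Activators and inhibitors (6 genes) had a median of -0.0013, and the p97 segregase genes (5), which pull ubiquitinated proteins out of membranes and complexes, one of 0.03. Nfe2l1, the transcription factor that raises proteasome genes when the proteasome is impaired, was at 6.32 in TG NM-101 and 6.28 in TG placebo, a difference of 0.04 with a limma adjusted p of 0.876.

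Rps27a, which encodes ubiquitin fused to a ribosomal protein, was at a mean of 9.72 ± 0.16 in TG NM-101 and 9.25 ± 0.11 in TG placebo (SD, n = 3 each). Its limma adjusted p was 0.115, and the groups did not overlap, as in 13.6% of all genes in the higher direction. Ubqln4, a ubiquilin that shuttles substrates to the proteasome, was at a mean of 5.49 in TG NM-101 and 5.11 in TG placebo (limma adjusted p = 0.106). The polyubiquitin gene Ubb, named after its values were seen, went the other way at -0.35 (limma adjusted p = 0.266), with each NM-101 library below each placebo library. Of all genes, 5.98% stood apart in that direction. Rps27a and Ubb thus lay on opposite sides of 0, and neither passed the test. Pomp, which matures the core particle and was also named after its values were seen, differed by 0.23 (limma adjusted p = 0.321).

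Promoters were read from RefSeq windows of GRCm38.p6, from 250 bases before to 50 after an annotated start, which were found by symbol for 29 of the 36 genes. No window was found for Psma8, Psmb1, Psmb2, Psmb7, Psmc3, Psmd3 and Psmd7. The letters ACTTCCGG, bound by factors of the ETS family, were searched on both strands. They were found in 6 of 29 members (20.7%), against 4.31% of all 27025 genes with a window. Those 27025 genes are not limited to genes expressed here, and no share over expressed genes was taken. Of the 6, 5 are genes of the regulatory particle, out of 14 with a window. The windows with a match are shown because they set the regulatory genes beside the core genes, of which 1 of 12 held the letters. Capitals mark the match, 10 bases are given on each side, and each is read in the direction of its gene:
Psma6, chr12:55398831-55398858, plus strand: agtagccataACTTCCGGgagggggctt
Psmc1, chr12:100110163-100110190, plus strand: tggtggatgcACTTCCGGcggtggcgat
Psmc2, chr5:21785180-21785207, plus strand: accagtgagcACTTCCGGgatggggctc
Psmc2, second start, chr5:21786712-21786739, plus strand: gcgcggagctACTTCCGGtggggaagag
Psmd12, chr11:107479500-107479527, plus strand: tgagcgggcgACTTCCGGtgcgagtgac
Psmd6, chr14:14120973-14121000, minus strand: agagacgcgaCCGGAAGTcagactggcg
Psmd13, chr7:140882378-140882405, plus strand: gcccgcggtgCCGGAAGTgagcgagcac
Psmc2 has a match in each of its 2 windows. Psma6 also has 2 windows, and its match lies in that of a downstream start, inside the gene as placed above. The members that hold these letters ranged in difference from -0.09 for Psmc2 to 0.28 for Psma6.

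The antioxidant response element core TGACNNNGC, bound by NFE2L1 and NFE2L2 in mouse and human cells, was found on either strand in 5 of 29 members (17.2%), against 14.0% of all genes with a window, so members held it about as often as other genes. By particle that was 2 of 12 core genes, 2 of 14 regulatory genes and 1 of 3 chaperone genes. The 5 members were Psmb5, Psmb6, Psmc6, Psmd12 and Psmd9. Only the windows of the catalytic genes Psmb5 and Psmb6 are shown, because these carry proteolytic sites:
Psmb5, chr14:54618024-54618052, minus strand: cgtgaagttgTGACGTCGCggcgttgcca
Psmb6, chr11:70525338-70525366, plus strand: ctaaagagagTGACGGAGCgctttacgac
Capitals again mark the match. Psmb7, which also carries a proteolytic site, had no window and was not searched. CCAAT, bound by NF-Y, was in 41.4% of members and 41.1% of all genes with a window, with 7 of 12 core genes and 4 of 14 regulatory genes. None of the matches shown overlapped a match of another motif searched. A match is a description of letters and was not tied to any difference between groups.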

How the data were processed

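A single table of 33299 RefSeq transcripts in 9 samples was deposited. Its WT columns hold deposited whole-number counts, and its TG columns hold deposited log2 values whose unit the sources used here do not state. Bowtie2 and mm10 are named in the submitters' processing notes, while a counting program is not named in the sources at hand. An FFPE kit gave the RNA and QuantSeq, which reads the 3' end, the libraries, per the labels' protocols.

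For each symbol the TG values were made linear and added up (RefSeq gene table of GRCm38.p6, which named 32394 transcripts; 905 kept their identifiers) and written as log2(value + 1), a pseudocount of 1 that understates the change of low genes. The test was limma 3.58.1 in R 4.3.3 with variance trend and robust shrinkage, on 6 samples and 12699 genes with a mean of at least 1, adjusted by Benjamini-Hochberg over all of them at 0.05. It was also run on simulated data with independent noise and with added differences larger than that of any member. That run therefore does not show how the test handles differences of the members' size. WT lengths came from GENCODE M21.

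Replicate numbers did not pair the samples (see the closing section). The members, lists and tests were chosen with earlier results of these data known. Values in every library are given for the catalytic genes, the highest and lowest of each part, the 4 largest differences in each direction and the 3 largest WT variations. Psmb4 also falls under this rule, and Psmd12, Psmd14, Psmd1, the transcript pairs, Psmb8, Psmb9 and Nfe2l1 were named after their values were seen. No protein sequences were used here. A further pathway gene that the naming rule chose is not reported here.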

Additional observations from a re-analysis of the deposited data

How the results depend on the processing

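Of 34 members tested, 0 passed under the main settings and under every alternative run except the fit without TG placebo replicate 1, with 3 calls. Leaving out 1 library gave between 0 and 3 member calls and between 2 and 2262 calls among all genes, against 17. The count over all genes was 4 without a filter on low values, 4 with median-ratio scaling, 7 with the highest transcript only and 4 in limma without trend and robust shrinkage; a pseudocount of 0.1 left 17. With the replicate block, that is the replicate number as a term, 3 genes and 0 members were called. The numbers do not pair the samples, since deviations of same-numbered TG NM-101 and TG placebo samples correlated at 0.04, -0.03 and -0.02. Without 1 library the median difference ran from 0.04 to 0.16 for all members, from 0.09 to 0.23 for core and from 0.0040 to 0.09 for regulatory members. With median-ratio scaling it was 0.07 for all members, 0.13 for core and 0.02 for regulatory members. The linear values summed to 494042, 538144 and 660628 in the TG NM-101 libraries, against 473933, 435749 and 464397 in the TG placebo libraries.

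The gap between core and regulatory level was 0.93 in TG placebo and 0.64 in WT placebo with the chaperones counted in the regulatory particle, 0.81 in TG placebo with members of 1 transcript only, and 0.86 in TG NM-101 and 0.76 in TG placebo with means over the tested members. TG NM-101 minus WT placebo was -0.0069 with median-ratio scaling and 0.0066 with the other length, both near 0. The other length and the means were chosen after seeing the data.

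For 10 members that did not pass, the sign changed under some setting; the cause was not tested. Leaving out 1 library, the difference ran from -0.094 to 0.049 for Psma4, from -0.013 to 0.104 for Psmb7, from -0.071 to 0.060 for Psmd1, from -0.087 to 0.036 for Psmd3, from -0.089 to 0.046 for Psmd4, from -0.026 to 0.051 for Psmd6, from -0.067 to 0.079 for Psmd8, from -0.0040 to 0.094 for Psmd11, from -0.143 to 0.038 for Psmd13 and from -0.144 to 0.066 for Psmd9. With median-ratio scaling Psmd6 was at -0.026 and Psmd8 at -0.015, and with the highest transcript only Psmd4 was at 0.056. The depth of the TG libraries is unknown, which limits statements on Psma8 and Psmb11.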
